A study of Mus musculus with 35 samples.

Results

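The lower side population (LSP) of mouse bone marrow was set against CD8 T lymphocytes of the same tissue, in amplified RNA from 10 cells at a time. The comparison took every ten-cell array labelled LSP (samples A, B and M) and every ten-cell array labelled CD8 (samples B, C and D), which made 6 samples on 12 arrays out of the 26 samples on 35 arrays of the series. All cells came from C57Bl/6 male mice, which the study's methods give as CD45.1 animals of 7 to 9 weeks kept on acidified water, and no genotype or treatment set the populations apart. LSP cells were stained with the dye Hoechst and sorted as Sca-1+ cells without Gr-1/Ly6C staining from the lower part of the side population tail. CD8 cells were those positive for both CD3 and CD8. The methods describe the dye step for the side population sort alone, so any effect of it and that of the population cannot be told apart. A sample pools 4 amplifications, each of 10 cells, and was hybridized to 2 Affymetrix MG-U74Av2 arrays. By the study's methods the marrow of a single mouse went into a sort. The labels do not say which samples shared a mouse, so the p-values below measure the spread between these samples. Each population is a sort gate and not a pure cell type, and in pools of cells, fewer cells of a type and less RNA per cell cannot be told apart. The amplification copied only the 3′ end of each transcript.

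The side population takes its name from a dim tail of cells that pump out Hoechst, an efflux carried largely by the transporter Abcg2, and in mouse marrow it is rich in haematopoietic stem cells. Stem cells are known for a set of transcription factors that act together, among them Tal1, Lmo2 and Gata2, and for surface proteins that they share with blood vessel lining, such as Tie1 and endomucin. CD8 T cells carry the T-cell receptor with its CD3 chains, signal through the kinase Zap70 and kill target cells with perforin and granzymes. Marrow also holds T cells that are not activated, which depend on the interleukin-7 receptor.

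The promoters of 4 genes that the comparison turns on are shown here, for Tie1 and Emcn as genes with higher levels in LSP and for Cd3d and Il7r as genes with higher levels in CD8. Each is the 250 bases before the annotated transcription start, from RefSeq on GRCm38.p6, read 5′ to 3′ on the strand of the gene. Tie1 lies at chr4:118489850-118490099 on the minus strand, Emcn at chr3:137340828-137341077 on the plus strand, Cd3d at chr9:44981536-44981785 on the plus strand and Il7r at chr15:9529877-9530126 on the minus strand. Capitals mark the letters of an E-box (CANNTG, which reads the same on both strands) or of an ETS core (GGAAG, or CTTCC on the other strand).
Tie1: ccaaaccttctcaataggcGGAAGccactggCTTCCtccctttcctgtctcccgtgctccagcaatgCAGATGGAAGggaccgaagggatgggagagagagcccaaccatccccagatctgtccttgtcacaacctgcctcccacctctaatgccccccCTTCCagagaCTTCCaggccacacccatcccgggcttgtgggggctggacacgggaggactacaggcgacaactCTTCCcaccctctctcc
Emcn: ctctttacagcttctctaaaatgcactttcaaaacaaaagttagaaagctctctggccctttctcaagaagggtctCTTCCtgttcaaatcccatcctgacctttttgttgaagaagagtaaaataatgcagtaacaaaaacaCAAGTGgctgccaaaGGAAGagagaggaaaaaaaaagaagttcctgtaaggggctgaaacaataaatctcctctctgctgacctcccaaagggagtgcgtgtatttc
Cd3d: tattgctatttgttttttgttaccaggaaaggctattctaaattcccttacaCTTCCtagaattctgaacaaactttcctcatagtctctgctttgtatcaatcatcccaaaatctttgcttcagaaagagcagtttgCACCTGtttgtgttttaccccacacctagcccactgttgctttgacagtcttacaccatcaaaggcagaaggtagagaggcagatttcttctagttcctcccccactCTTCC
Il7r: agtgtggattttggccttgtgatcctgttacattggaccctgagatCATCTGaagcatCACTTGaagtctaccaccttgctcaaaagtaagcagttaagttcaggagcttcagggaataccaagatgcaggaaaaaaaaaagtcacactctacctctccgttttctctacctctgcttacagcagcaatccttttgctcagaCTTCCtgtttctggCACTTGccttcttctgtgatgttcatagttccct
The Tie1 window held 1 E-box and 6 ETS cores, with 1 of each overlapping, and the Emcn and Cd3d windows each held 1 E-box and 2 ETS cores. The Il7r window held 3 E-boxes and 1 ETS core. Further motifs were searched on both strands, with GATAA as the GATA motif and TGTGGT as the RUNX motif, and neither was found in these 4 windows. All of these motifs are common. An E-box was found in 66.2% of 32851 promoters of this length, an ETS core in 64.1%, the GATA motif in 22.6% and the RUNX motif in 14%. Among the tested genes of the arrays, of which 4070 of 4953 had a promoter entry, these shares were 57.1%, 69%, 14.9% and 11.1%. Genes with higher levels in LSP had an entry for 137 of 158, and their promoters held an E-box in 54.8%, an ETS core in 67.6%, the GATA motif in 13.3% and the RUNX motif in 7.45%. For genes with higher levels in CD8, with an entry for 93 of 134, the shares were 57.5%, 72.4%, 15% and 9.45%. A match describes the letters of the window and not a site in use.

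Levels are given as log2 of the deposited intensity, averaged over the 2 arrays of a sample, with every level under 7 (an intensity of 128) set to 7, which is called the floor. The arrays hold 12422 probe sets other than controls. On all 12 arrays 6016 of them gave floor values only, and the other 6406 were tested. The LSP samples had 3620 to 4228 probe sets above the floor and the CD8 samples 3790 to 3845. Samples of CD8 resembled each other more (Pearson r across tested probe sets, which are not independent replicates, of 0.774 to 0.805) than samples of LSP did (0.612 to 0.64), and between the populations r ran from 0.489 to 0.592. The median standard deviation between samples was 0.59 in LSP and 0.29 in CD8. On 5 of the 6 LSP arrays 24.55% to 32.13% of the deposited values were negative, whereas the second array of LSP sample B and all 6 CD8 arrays held positive values alone. The kind of values therefore went partly with the population. The level of LSP sample B averages both kinds. Its 2 arrays differed more than 2-fold at 480 probe sets, against 97 and 132 in LSP samples A and M and 13 to 19 in the CD8 samples. With the LSP arrays of the negative kind alone, an alternative chosen after the data were seen, the calls numbered 225 in favour of LSP and 169 in favour of CD8.

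A total of 352 probe sets differed between the populations in limma's moderated test at a Benjamini-Hochberg adjusted p under 0.05, which is 5.49% of those tested. Of these, 187 (2.92%) were higher in LSP and 165 (2.58%) higher in CD8, standing for 158 and 134 named genes. At an unadjusted p under 0.05 there were 573 (8.94%) and 493 (7.7%). The 3 samples of each population did not overlap for 1350 probe sets (21.1%), with every LSP sample above every CD8 sample for 717 (11.2%) and the reverse for 633 (9.88%). The median difference over all tested probe sets was 0.04. For 73 of the 187 probe sets higher in LSP, all CD8 samples were at the floor, and for 76 of the 165 higher in CD8, all LSP samples were. Where a population lay at the floor throughout, the fold can only be bounded from below, which is written as "at least". The spread of such a population counts as 0 in the test. The standard errors and p-values of these differences leave out its real spread and may be too small. The number of calls changed when a sample was left out. In favour of LSP, leaving out CD8 sample B, C or D gave 76, 80 or 74 calls in place of 187. The count thus fell to a like number whichever CD8 sample was missing. Leaving out LSP sample A, B or M gave 246, 189 or 268. In favour of CD8 the number of calls ran from 120, without CD8 sample D, to 226, without LSP sample A.

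**Figure D1:**
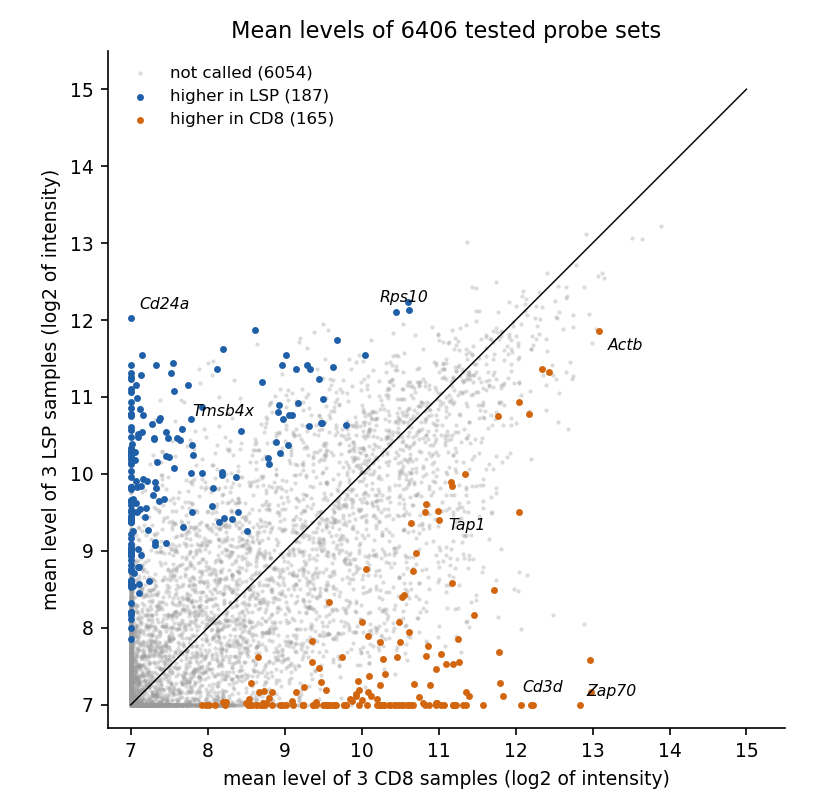
Mean level in the 3 CD8 samples (horizontal axis, log2 of intensity) against the mean level in the 3 LSP samples (vertical axis, log2 of intensity) for the 6406 tested probe sets, with called probe sets in colour, chosen genes named and the line of equal levels drawn. The called probe sets along the 2 edges at 7 are those with 1 population at the floor, and those inside the plot, such as Tmsb4x, Rps10, Actb and Tap1, were measured in both.

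The genes of the sort matched the labels of the CD8 samples. Cd3d, a chain of the CD3 complex, had levels of 12.25, 11.79 and 12.56 in CD8 samples B, C and D and was at the floor in LSP. Cd3g had 10.96, 10.81 and 11.31 in CD8 and was at the floor in LSP, and Cd3e had 10.84, 11.28 and 11.41 in CD8 with 8.59 in LSP sample M and the floor in the other LSP samples. Cd8b1 (12.04, 12.38 and 11.78) and Cd8a (11.16, 10.23 and 10.16), the chains of the coreceptor, were at the floor in all LSP samples. These genes define the gate, so their differences are a check of the labels. Ptprc, the pan-leukocyte antigen CD45, was at 9.63, 9.54 and 11.05 in LSP and 9.94, 9.99 and 10.02 in CD8, with a difference of 0.09 ± 0.45 (SE; adjusted p = 0.935 in limma with Benjamini-Hochberg adjustment). Of the genes behind the LSP gate, Ly6g was at the floor on all 12 arrays, in LSP and in CD8 alike, and Sca-1 had no probe set assigned to its gene alone. A probe set that the annotation gives to several genes had 7.45, 7.07 and 7 in LSP and 13.11, 12.77 and 13.05 in CD8 (-5.80, adjusted p = 0.000543). The study's primer list titles it as Ly6 complex locus C. Cells stained for Ly6C were excluded from the LSP gate, so this difference is a check of the labels as well. Cd4 was at the floor everywhere.

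**Figure D2:**
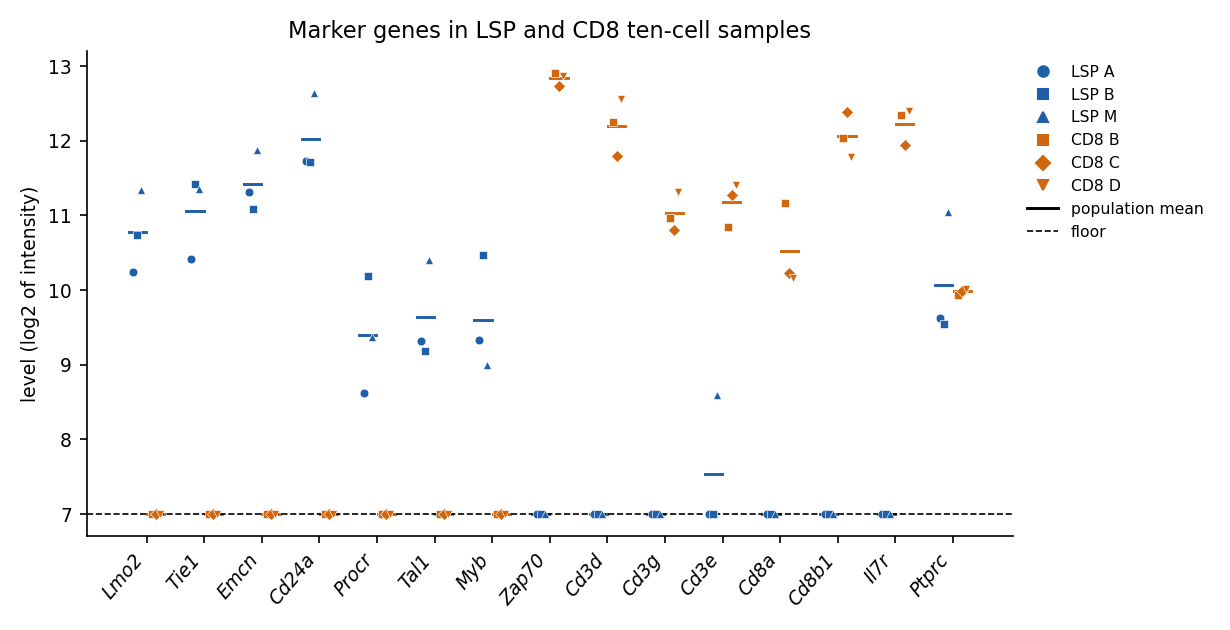
Level of 15 marker genes (log2 of intensity) in each LSP and each CD8 sample, with bars for the mean of the 3 samples and a dashed line at the floor of 7. The LSP markers from Lmo2 to Myb are at the floor in all CD8 samples, the CD8 markers from Zap70 to Il7r are at the floor in LSP apart from Cd3e in sample M, and Ptprc overlaps.

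Of the 4 markers chosen to stand for the populations, Cd3d belongs to the sort and Lmo2, Tie1 and Zap70 do not, and all 4 separated the samples without overlap. Lmo2, a bridging protein of the stem-cell transcription factor complex, was at 10.24, 10.74 and 11.34 in LSP samples A, B and M and at the floor in CD8, at least 13.7-fold higher (difference 3.78 ± 0.30, adjusted p = 0.00472). Tie1, a receptor tyrosine kinase of endothelium and stem cells, was at 10.41, 11.42 and 11.35 in LSP and at the floor in CD8, at least 16.7-fold higher (4.06 ± 0.31, adjusted p = 0.0038). The lowest LSP sample thus lay more than 3 log2 units above the floor for both genes. A dimmer probe set of Lmo2 (difference 2.15, adjusted p = 0.38) and one of Tie1 (0.78, adjusted p = 0.622) were not called. Zap70, the kinase that binds the phosphorylated T-cell receptor, was at 12.91, 12.74 and 12.87 in CD8 and at the floor in LSP, at least 57.2-fold higher in CD8 (-5.84 ± 0.11, adjusted p = 0.000286). A dimmer probe set of Zap70 differed as well, with 11.22, 11.12 and 11.3 in CD8 and the floor in LSP (at least 18.6-fold, adjusted p = 0.000501), and the third was not called (-0.89, adjusted p = 0.622). For Cd3d the CD8 level was at least 36.8-fold higher (-5.20 ± 0.23, adjusted p = 0.000826). All 4 markers kept their call whichever sample was left out.

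Among the 15 probe sets of a named gene with the largest difference in favour of LSP, several encode surface proteins. Cd24a, a small glycoprotein anchored to the membrane by lipid, led them with 11.73, 11.72 and 12.64 in LSP and the floor in CD8, at least 32.6-fold higher (5.03 ± 0.29, adjusted p = 0.00172). Emcn, the sialomucin endomucin, had 11.31, 11.09 and 11.87 (at least 21.5-fold), and Adgrg1, an adhesion receptor coupled to G proteins, had 10.89, 11.13 and 11.91 (at least 19.8-fold), both against the floor in CD8. Dimmer probe sets of Emcn were not called (0.09 and 0.99, adjusted p = 0.739 and 0.564). Gstm1, a glutathione transferase, had 11.2, 11.57 and 11.84 in LSP and 7, 7 and 7.41 in CD8 (21.1-fold, 4.40 ± 0.23, adjusted p = 0.00133). Sample M had the highest LSP level of all 4 of these genes. Krt18, a keratin of simple epithelia, was the steadiest of the 15 in LSP, with 11.27, 11.48 and 10.97 against the floor (at least 18.9-fold, 4.24 ± 0.17, adjusted p = 0.000598). Its dimmer probe set was not called (0.46, adjusted p = 0.467).

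The others of the 15 spanned transcription, trafficking and the basement membrane. Ell2, an elongation factor of RNA polymerase II, had 10.66, 11.41 and 11.71 in LSP (at least 19.1-fold), and Mef2c, a MADS-box transcription factor, had 10.56, 11.02 and 11.4 in LSP against 7.23, 7 and 7 in CD8 (15.1-fold, adjusted p = 0.00208). Other, dimmer probe sets of Mef2c were at the floor or not called (0.61 and 1.31, adjusted p = 0.622 and 0.512). Bex1, a small adaptor best known from neurons, had 10.9, 10.9 and 11.55 in LSP against the floor (at least 17.3-fold, adjusted p = 0.00137). Col4a1, a chain of basement membrane collagen, ranged more widely, from 10.16 in LSP sample A to 11.8 in sample B (at least 15.2-fold, 3.93 ± 0.44, adjusted p = 0.0119). Rhoq, a small GTPase, had 10.91, 11.39 and 12.02 in LSP but also 8.64 in CD8 sample B, and Tfdp1, the partner of E2F factors, had 11.49, 11.87 and 10.58 in LSP but also 8.56 in CD8 sample C. Of the 15, 12 kept their call without each sample in turn. The other 3 were Col4a1, which lost it without CD8 sample B, C or D (adjusted p = 0.0665, 0.0666 and 0.0654), Rhoq (adjusted p = 0.0576 to 0.114, kept only without CD8 sample B) and Tfdp1 (adjusted p = 0.0518 to 0.126, kept only without CD8 sample C). For Rab11a and Wdr26, also among the 15 (17.8-fold and at least 14.6-fold), a brighter probe set of the same gene was not called, at -0.69 (adjusted p = 0.493) and 0.40 (adjusted p = 0.711).

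**Figure D3:**
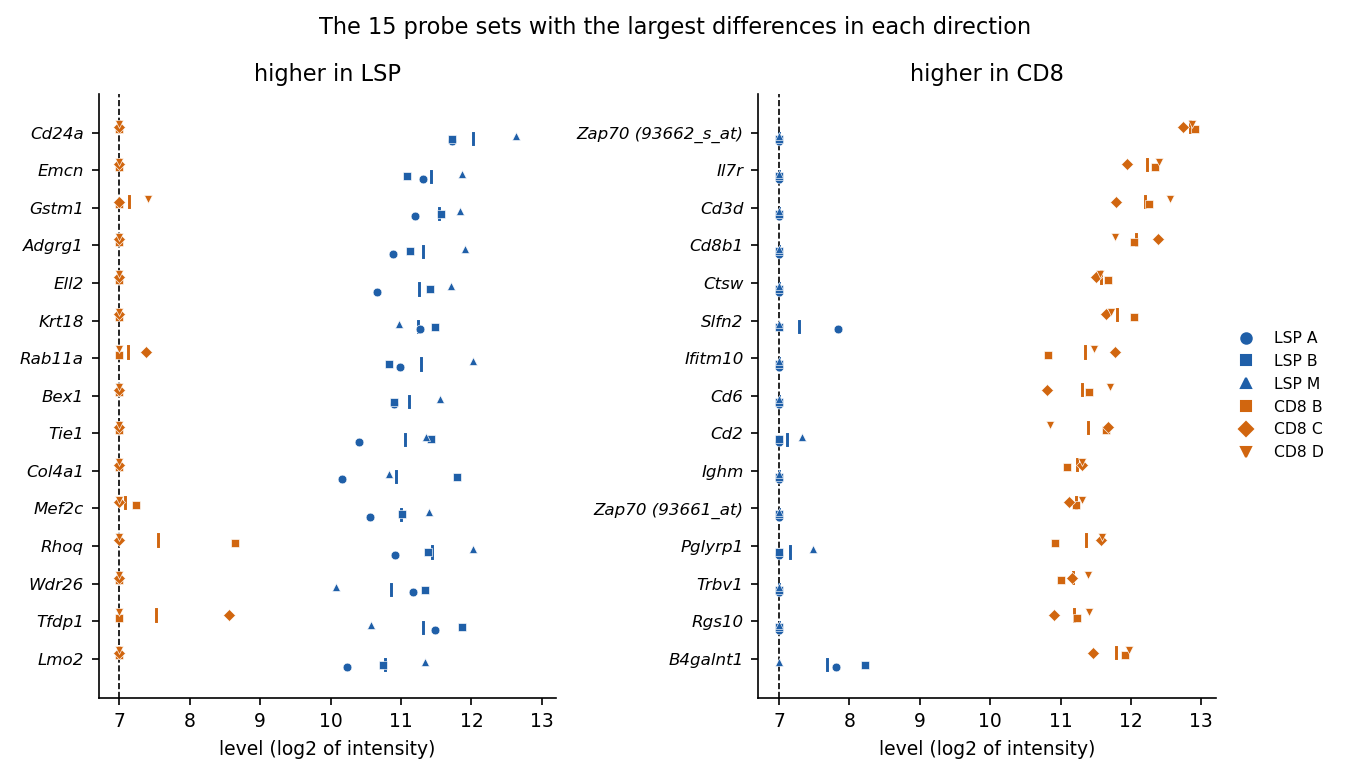
Level (log2 of intensity) in each sample for the 15 probe sets of a named gene with the largest called difference in favour of LSP (left) and of CD8 (right), with short bars for the population means and the dashed line at the floor of 7. The CD8 samples lie closer together than the LSP samples for most genes, and the few values above the floor in the opposite population, such as Rhoq in CD8 sample B and B4galnt1 in LSP samples A and B, stand apart.

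On the CD8 side, the 15 probe sets with the largest differences stood for 14 genes and were mostly of T-cell genes. Il7r, the receptor chain for interleukin-7, had 12.34, 11.94 and 12.4 in CD8 and the floor in LSP, at least 37.5-fold higher in CD8 (-5.23 ± 0.16, adjusted p = 0.000543). Ctsw, a cathepsin of cytotoxic lymphocytes, was close to constant across CD8 at 11.67, 11.5 and 11.56 (at least 23.9-fold, adjusted p = 0.00049). Cd6, an adhesion receptor of T cells, had 11.41, 10.81 and 11.7 against the floor (at least 19.8-fold). Trbv1, a variable segment of the T-cell receptor beta chain, had 11, 11.16 and 11.39 (at least 18.2-fold), and Rgs10, which turns off G protein signals, had 11.24, 10.91 and 11.41 (at least 18.2-fold), although a further probe set of Rgs10 was not called (-2.21, adjusted p = 0.318). Some of these genes were also measured above the floor in an LSP sample. Slfn2, a schlafen protein tied to quiescence of T cells, had 12.04, 11.65 and 11.71 in CD8 and 7.84 in LSP sample A (23-fold), and Cd2, an adhesion receptor, had 11.64, 11.67 and 10.85 in CD8 and 7.33 in LSP sample M (19.4-fold). B4galnt1, a ganglioside synthase, had 11.92, 11.46 and 11.97 in CD8 and 7.81 and 8.22 in LSP samples A and B (17.2-fold, -4.11 ± 0.37, adjusted p = 0.00618). Pglyrp1 (18.4-fold), a peptidoglycan recognition protein, and Ifitm10 (at least 20.5-fold) completed the group with Ighm, which is taken up with the B-lineage markers. A brighter probe set of Pglyrp1 was just past the threshold (-4.09, adjusted p = 0.0502). All 15 kept their call without each sample in turn.

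The T-cell receptor complex and its proximal signalling had 28 genes on the array, of which 24 were tested. The levels of 7 were higher in CD8, against 2.58% of all probe sets tested, and of 0 in LSP (1 at an unadjusted p under 0.05), with a median difference of -1.07. Of the 7, Cd3d, Cd3e and Cd3g belong to the sort. The other 4 were Zap70, Sh2d2a, Txk and Cd247. Sh2d2a, an adaptor of T-cell signalling, had 11.15, 10.8 and 10.49 in CD8 and the floor in LSP (at least 14.1-fold, -3.82 ± 0.20, adjusted p = 0.00132). Txk, a kinase of the Tec family, had 10.55, 10.9 and 10.33 (at least 12.1-fold, adjusted p = 0.00124), and Cd247, the zeta chain of the complex, had 9.04, 9.06 and 9.58 (at least 4.68-fold, adjusted p = 0.00565), both with LSP at the floor. With a variance trend the call of Cd247 was lost (adjusted p = 0.138). Ptpn22, a phosphatase that restrains the receptor, had 11.32, 11.24 and 11.54 in CD8 and 9.34, 7 and 7.93 in LSP (-3.28, adjusted p = 0.0556), and Prkcq had 10.91, 10.97 and 10.59 in CD8 and 9.33 in LSP sample A (-3.0, adjusted p = 0.0942). Itpkb, with a spread of 7 to 10.47 in LSP, was not called either (-2.13, adjusted p = 0.435). Cd3e lost its call without any sample other than LSP sample M (adjusted p = 0.0639 to 0.108).

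The coreceptors and adhesion receptors of T cells had 26 genes on the array and 22 tested, of which 7 were higher in CD8 and 0 in LSP (0 at an unadjusted p under 0.05 in limma, and 0 by the methods' t-test, the plain test that the study's methods name, after Benjamini-Hochberg adjustment), with a median difference of -1.69. Of all probe sets tested, 2.58% were higher in CD8. Cd8a and Cd8b1 belong to the sort. Crtam, a receptor of cytotoxic T cells, had 9.5, 9.47 and 9.66 in CD8 and the floor in LSP (at least 5.84-fold, -2.55 ± 0.11, adjusted p = 0.000865, and 0.0945 with a variance trend). Selplg, the ligand of P-selectin, had 9.31, 9.97 and 10.5 in CD8 and 7.43, 7 and 7 in LSP (6.89-fold, adjusted p = 0.0173). Thy1, which long-term stem cells also carry at low levels, was measured in both populations, with 11.32, 11.4 and 11.66 in CD8 and 8.81, 7 and 8.66 in LSP (9.9-fold, adjusted p = 0.0357). Selplg lost its call without LSP sample B or M or CD8 sample C (adjusted p = 0.0578 to 0.0841), and Thy1 kept it only without LSP sample B (adjusted p = 0.0548 to 0.145 otherwise). Of the genes not called, Itgb7 (-3.11, adjusted p = 0.151), Cd96 (-2.16, adjusted p = 0.32) and Cd7 (-1.93, adjusted p = 0.0574) had the largest differences. Itgb7 stood at 9.63 in LSP sample M and at the floor in the other LSP samples.

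Cytotoxic granules and killer receptors had 24 genes on the array and 17 tested, with a median of -1.0. Of the 17, 3 were higher in CD8, against 2.58% of all probe sets tested, and 0 in LSP (1 at an unadjusted p under 0.05). Prf1, the pore protein perforin, had 9.84, 10.8 and 10.43 in CD8 and the floor in LSP (at least 10.2-fold, -3.35 ± 0.27, adjusted p = 0.00486). Klrd1, the receptor chain CD94, had 9.91, 9.62 and 9.8 (at least 6.84-fold, adjusted p = 0.000865, and 0.0657 with a variance trend), and Ctsw was the third. The granzymes varied more among the CD8 samples. Gzmm had 10.29, 8.73 and 8.1 (-2.04, adjusted p = 0.165), Gzmk had 9.62, 10.26 and 7, Gzma was above the floor in sample C alone at 8.55, and Gzmb did not exceed the floor in any sample. The secreted factors were uneven as well: Ifng was above the floor in CD8 sample C alone (9.9) and Fasl in samples B and D (9.78 and 9.32). Ccl5, a chemokine of effector T cells, had 10.78, 10.61 and 11.58 in CD8 and the floor in LSP samples A and B, but 11.77 in LSP sample M (-2.40, adjusted p = 0.486). Cst7 (-2.71, adjusted p = 0.173) was likewise raised in 1 LSP sample, with 9.67 in sample A. Gzmk, Gzma, Gzmb, Ifng and Fasl were chosen after their values were seen.

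Genes of naive T-cell survival, homing and quiescence had 20 members on the array and 18 tested, with a median of -1.21. Of the 18, 6 were higher in CD8, against 2.58% of all probe sets tested, and 0 in LSP (1 at an unadjusted p under 0.05). Besides Il7r and Slfn2, the 6 were Ltb, Klf2, Foxp1 and Slfn1. Ltb, the lymphotoxin subunit that lymphocytes use to organise lymphoid tissue, had 10.6, 10.64 and 10.79 in CD8 and 7.58, 7 and 7.24 in LSP (10.6-fold, -3.41 ± 0.19, adjusted p = 0.00144). Klf2, a factor of T-cell quiescence, had 11.03, 9.54 and 9.44 in CD8 and 7, 7.17 and 7 in LSP (7.72-fold, adjusted p = 0.0354). Foxp1 had 10.24, 9.9 and 10.59 in CD8 and 7.27, 8.66 and 7.54 in LSP (5.35-fold, adjusted p = 0.0475), and Slfn1 had 9.81, 8.5 and 9.37 against the floor (at least 4.68-fold, adjusted p = 0.0354). Klf2, Foxp1 and Slfn1 kept their call in only 1 of the 6 fits with a sample left out, without CD8 sample B, LSP sample B and CD8 sample C in that order, and had adjusted p = 0.0811 to 0.168 in the others. Gimap4, a GTPase of T-cell survival, had 12.83, 12.8 and 13.03 in CD8, but 10.15 in LSP sample A against the floor in the other LSP samples (-4.84, adjusted p = 0.0614). S1pr1, the receptor for exit from tissues, lay the other way, with 8.41, 8.53 and 10.11 in LSP and 7, 7.1 and 7.18 in CD8 (1.92, adjusted p = 0.129). Il6ra was uneven in CD8 (-1.52, adjusted p = 0.426).

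Lymphoid transcription factors had 17 tested genes with 0 calls in either direction in limma (0 and 2 at an unadjusted p under 0.05, in favour of LSP and CD8, and 0 by the methods' t-test) and a median of -0.04. This is near the 2.92% and 2.58% of all probe sets called in the 2 directions. For Klf13, a zinc finger factor, the brighter probe set that stands for the gene was not called (1.03, adjusted p = 0.516), whereas a dimmer one was called higher in CD8 (-2.04, adjusted p = 0.01). Satb1, a chromatin organiser of thymocytes, had 10.91, 10.95 and 11.37 in CD8 and 9.27, 7 and 7 in LSP (-3.32, adjusted p = 0.0738). Gata3, a factor of T-cell development, had 10.22, 8.1 and 9.01 in LSP and 10.05, 9.94 and 8.1 in CD8 (-0.25, adjusted p = 0.887), a difference whose sign turned when LSP sample B, CD8 sample B or CD8 sample C was left out. Stat4 was above 10 in all 6 samples, at 10.94, 10.1 and 11.61 in LSP and 11.11, 10.98 and 10.22 in CD8 (0.11, adjusted p = 0.921). Ets1 and Ikzf1 were at or near the floor in most samples. Eomes, also on the list, had 7, 7 and 11.13 in LSP samples A, B and M and 9.38, 9.27 and 7.99 in CD8 (-0.5, adjusted p = 0.856). Klf13, Stat4, Ets1, Ikzf1 and Eomes were chosen after their values were seen.

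On the LSP side, stem-cell transcription factors had 33 genes on the array and 23 tested, with 4 higher in LSP, against 2.92% of all probe sets tested, and 0 in CD8 (1 at an unadjusted p under 0.05), and a median difference of 1.29. Besides Lmo2, Tal1, which binds E-boxes and joins Lmo2 in a complex, had 9.32, 9.18 and 10.4 in LSP and the floor in CD8 (at least 6.21-fold, 2.63 ± 0.36, adjusted p = 0.0221). Myb, needed for blood formation in the adult, had 9.33, 10.47 and 9.0 in LSP and the floor in CD8 (at least 6.06-fold, 2.60 ± 0.41, adjusted p = 0.0343), and Tfdp1 was the fourth. Other members of the group had high levels in LSP without a call. Meis1, a partner of Hox proteins, had 10.85, 11.13 and 8.8 in LSP and the floor in CD8 (3.26, adjusted p = 0.0681). Nfe2 had 11.23, 11.53 and 11.66 in LSP but 10.21 in CD8 sample D (3.41, adjusted p = 0.157), and Lyl1, a relative of Tal1, had 12.66, 10.81 and 11.61 in LSP but 11.85 in CD8 sample D (3.05, adjusted p = 0.403). For both genes the other 2 CD8 samples were at 7 to 7.07. Gata2 had 9.19, 9.3 and 7.56 in LSP and the floor in CD8 (1.68, adjusted p = 0.181). Cbfb, the partner of Runx proteins, was abundant in both, from 11.81 to 12.53 in LSP and 12.83 to 13.18 in CD8 (-0.87, adjusted p = 0.16), while Runx1, Gfi1, Mecom and Myc were at the floor on all arrays. Gata2, Cbfb and the genes at the floor were chosen after their values were seen. Lmo2 kept its call without each sample in turn, whereas Tal1 lost it without CD8 sample B, C or D (adjusted p = 0.098 to 0.0986) and Myb without LSP sample A or any CD8 sample (adjusted p = 0.0745 to 0.136). The count of 4 came to 1 without CD8 sample B and to 2 without LSP sample A or CD8 sample D.

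Surface proteins of stem cells and endothelium held the most calls in favour of LSP, with 9 of 21 tested genes, against 2.92% of all probe sets tested. The list had 29 genes on the array and a median of 2.12. Of the 21, 0 were higher in CD8 (0 at an unadjusted p under 0.05 in limma, and 0 by the methods' t-test). Besides Cd24a, Emcn, Adgrg1 and Tie1, the 9 included F11r, a tight junction protein, with 9.65, 11.02 and 9.97 in LSP and the floor in CD8 (at least 9.28-fold, 3.21 ± 0.38, adjusted p = 0.0147). The tetraspanins Cd63, Cd81 and Cd9, which organise membrane domains, were all at the floor in CD8. Cd81 was nearly constant in LSP at 10.22, 10.19 and 10.44 (at least 9.73-fold, 3.28 ± 0.12, adjusted p = 0.000598), Cd63 had 9.66, 10.52 and 11.25 (at least 11.1-fold, adjusted p = 0.016) and Cd9 had 8.6, 9.96 and 9.8 (at least 5.47-fold, adjusted p = 0.0357). Procr, the endothelial protein C receptor and a marker of long-term stem cells, had 8.62, 10.19 and 9.37 (at least 5.26-fold, adjusted p = 0.0441). Cd9 and Procr lie outside the rule for named genes and were added to complete the 9. Cxcr4, the receptor that holds stem cells in marrow, had 10.7, 11.13 and 12.08 in LSP and 9.21, 8.52 and 9.18 in CD8, without overlap but just past the threshold (2.33, adjusted p = 0.0514). Cd93 (2.12, adjusted p = 0.237) was at 9.37 in CD8 sample C, and Cd34 was at 10.12 and 9.84 in LSP samples A and B and at the floor in LSP sample M (1.99, adjusted p = 0.38). Cd24a, Emcn, Adgrg1, Tie1 and Cd81 kept their calls without each sample in turn. F11r lost it without any CD8 sample (adjusted p = 0.0758 to 0.0762), as did Cd63 (0.0803 to 0.0815), Procr (0.157 to 0.163) and Cd9 (0.139 to 0.142), the last 3 also without 1 or 2 LSP samples, and the count of 9 came to 5, 6 and 5 without CD8 sample B, C and D.

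Calls among receptors and pumps that are textbook features of stem cells were near the background of 2.92% and 2.58%. The receptors of stem and progenitor cells, mostly cytokine receptors, had 28 genes on the array and 16 tested, with a median of 0.03. Of the 16, 1 was higher in LSP and 0 in CD8 (1 at an unadjusted p under 0.05). The called gene was Notch2, which is not a cytokine receptor, with 9.93, 10.38 and 9.71 in LSP and 8.11, 7.3 and 8.36 in CD8 (4.23-fold, 2.08 ± 0.35, adjusted p = 0.0399). Notch2 lost its call whichever sample was left out (adjusted p = 0.0718 to 0.13). Kit, the receptor of stem cell factor, did not exceed the floor. On the study's single-cell arrays it was mostly called absent as well. The study's single-cell quantitative PCR still found Kit transcript in part of the stem cells tested, and it describes the protein as abundant. A Kit level at the floor of these arrays thus does not mean that the transcript was absent. Ifnar2 (-1.67, adjusted p = 0.0883), Il6st (-1.52, adjusted p = 0.332) and Ifngr1 (1.29, adjusted p = 0.122) were measured in all 6 samples and not called. Of 12 tested ABC transporters 0 were called in limma (1 in favour of LSP and 0 in favour of CD8 at an unadjusted p under 0.05, and 0 by the methods' t-test), with a median of -0.08. Abcg2, the pump behind the side population, had 9.7, 10.13 and 11.24 in LSP and 9.19, 7 and 7 in CD8. Every LSP sample lay above every CD8 sample, with CD8 sample B just below LSP sample A (2.63, adjusted p = 0.17). Abcg1 (0.99, adjusted p = 0.301) and Abca2 (0.84, adjusted p = 0.477) had the next largest differences.

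Enzymes of glutathione and redox metabolism had 41 genes on the array and 28 tested, with a median of 0.59. Of the 28, 3 were higher in LSP, against 2.92% of all probe sets tested, and 0 in CD8 (2 at an unadjusted p under 0.05). Gstm5, a glutathione transferase of the same class as Gstm1, had 11.26, 10.04 and 11.25 in LSP and 7.26, 7.1 and 7 in CD8 (13.3-fold, 3.73 ± 0.38, adjusted p = 0.00901). Its dimmer probe sets were at the floor or not called (2.28 and 1.42, adjusted p = 0.304 and 0.264). Glrx, glutaredoxin, had 9.38, 10.18 and 9.44 in LSP and 7.08, 7 and 7.01 in CD8 (6.22-fold, adjusted p = 0.00778). Genes of the mu class are closely alike in sequence, so signal may be shared between their probe sets. Gstm1 and Glrx kept their calls without each sample in turn, Glrx not with a variance trend (adjusted p = 0.0968), and Gstm5 had adjusted p = 0.0551 and 0.055 without CD8 sample C or D. Aldh2 (3.24, adjusted p = 0.175) and Gstk1 (3.23, adjusted p = 0.0713) were high in all LSP samples but also at 10.14 in CD8 sample D and 9.07 in CD8 sample C. Gstp1, of the pi class, lay the other way, with 8.91, 10.58 and 9.62 in LSP and 11.72, 11.2 and 12.13 in CD8, and was not called (-1.98, adjusted p = 0.121). Prdx4 (2.35, adjusted p = 0.164) was the next in size.

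**Figure D4:**
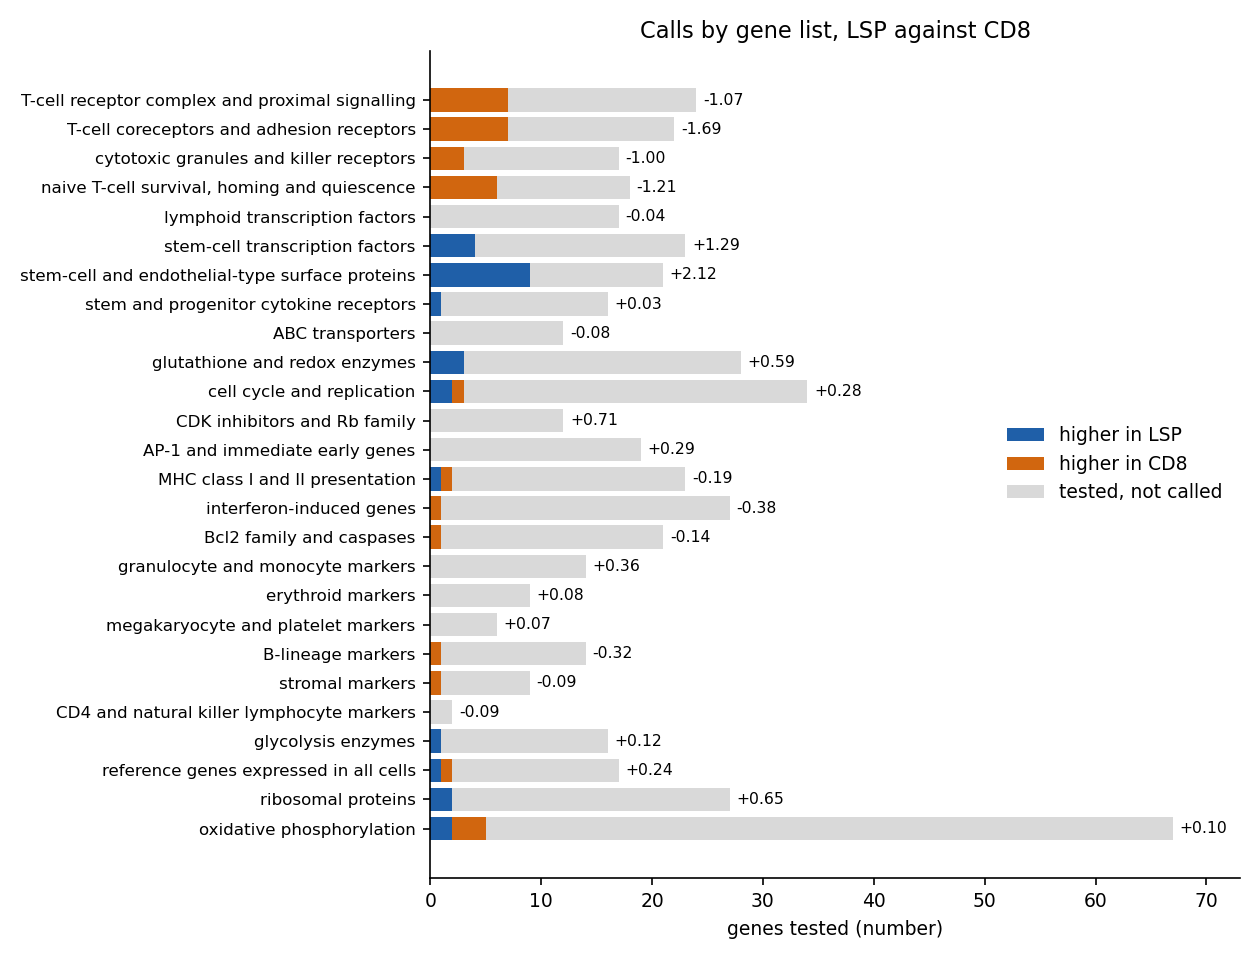
Number of tested genes in each of 26 gene lists (horizontal axis), split into genes called higher in LSP, called higher in CD8 and not called, with the median log2 difference of LSP minus CD8 beside each bar. The 4 lists of T-cell receptor, coreceptor, cytotoxic and naive T-cell genes hold calls in favour of CD8 alone and medians of -1.0 to -1.69, and the surface protein list holds 9 calls in favour of LSP and a median of 2.12.

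Of 34 tested cell cycle genes of 49 on the array, 2 were higher in LSP and 1 in CD8, near the 2.92% and 2.58% of all probe sets, with a median of 0.28. Top2a, the topoisomerase of dividing cells, had 10.79, 8.9 and 9.79 in LSP and the floor in CD8 (at least 7.1-fold, adjusted p = 0.0455), and Smc2, a condensin subunit, had 8.57, 9.44 and 9.08 in LSP and 7, 7.26 and 7 in CD8 (3.85-fold, adjusted p = 0.0213). Ccna2, cyclin A2, had 9.19, 9.75 and 9.3 in CD8 and 7, 7.09 and 7 in LSP (5.21-fold higher in CD8, -2.38 ± 0.19, adjusted p = 0.00427). Mki67, the proliferation antigen, was at 11.53 in LSP sample A, 7.77 in LSP sample M and the floor elsewhere (1.77, adjusted p = 0.564), while Cdk1, Ccnb2 and Aurkb were at the floor on all arrays. These 4 genes were chosen after their values were seen. Among the genes not called, Stmn1 (2.48, adjusted p = 0.38), Pcna (2.22, adjusted p = 0.0772) and Prim1 (2.15, adjusted p = 0.382) had the largest differences. Ccna2 kept its call without each sample in turn but not with a variance trend (adjusted p = 0.115), whereas Top2a and Smc2 lost theirs without LSP sample M or any CD8 sample (adjusted p = 0.122 to 0.167 and 0.0626 to 0.0952). Inhibitors of cyclin-dependent kinases and the Rb family, with 12 tested, had 0 calls in limma (2 and 0 at an unadjusted p under 0.05, in favour of LSP and CD8, and 0 by the methods' t-test) and a median of 0.71. Cdkn1a, Cdkn1b and Ccng2, which restrain the cycle or are tied to quiescence, were above the floor in all LSP samples and in no CD8 sample, at 7.59 to 9.65, 7.57 to 8.33 and 7.54 to 7.9 (adjusted p = 0.329, 0.108 and 0.0535). Gadd45b (1.56, adjusted p = 0.412) and Ccng2 were close to the floor or uneven, and Cdkn1b and Ccng2 were chosen after their values were seen.

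Calls among stress and immune response genes were near the 5.49% of all probe sets called in either direction. Of 19 tested AP-1 and immediate early genes 0 were called in limma (2 and 1 at an unadjusted p under 0.05, in favour of LSP and CD8, and 0 by the methods' t-test), with Socs2 at 10.41, 8.49 and 11.85 in LSP and the floor in CD8 (3.25, adjusted p = 0.139) and Jund above 12.6 in all 6 samples. Of 27 tested interferon-induced genes 1 was higher in CD8 and 0 in LSP (2 at an unadjusted p under 0.05), with a median of -0.38. It was Usp18, which removes the ubiquitin-like Isg15 from proteins, with 10.19, 10.34 and 10.32 in CD8 and the floor in LSP (at least 9.74-fold, -3.28 ± 0.11, adjusted p = 0.000543). Samhd1 (-2.98, adjusted p = 0.206), Ifi35 (-2.83, adjusted p = 0.328) and Ifitm1 (2.40, adjusted p = 0.104) were not called. In antigen presentation, with 23 tested, Tap1 was higher in CD8, at 11.01, 10.86 and 11.09 against 9.59, 9.48 and 9.5 in LSP (2.76-fold, -1.47 ± 0.12, adjusted p = 0.00514), and kept its call without each sample in turn. Canx, the chaperone calnexin, was higher in LSP near the floor (8.29, 8.01 and 7.71, at least 2.0-fold, adjusted p = 0.0482) and lost its call without LSP sample B or any CD8 sample (adjusted p = 0.109 to 0.151). The class I molecules H2-K1 and H2-D1 and their light chain B2m overlapped between the populations (0.29, 0.50 and 0.24, adjusted p = 0.624, 0.622 and 0.622). Of 21 tested genes of the Bcl2 family and caspases, Bid, which promotes cell death, was higher in CD8 (8.83, 8.87 and 8.0 against the floor, adjusted p = 0.0442) and kept its call only without CD8 sample D (adjusted p = 0.102 to 0.143 otherwise), and 0 were higher in LSP (0 at an unadjusted p under 0.05 in limma, and 0 by the methods' t-test). Jund, H2-K1, H2-D1 and B2m were chosen after their values were seen.

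Among 17 tested reference genes that all cells use, 1 was called higher in LSP and 1 higher in CD8. The shares over all probe sets tested were 2.92% and 2.58%. Tmsb4x, thymosin beta 4, had 10.06, 10.96 and 10.74 in LSP and 7.74, 7.47 and 7.79 in CD8 (7.6-fold, 2.93 ± 0.28, adjusted p = 0.00739). Actb, beta actin, had 11.88, 11.57 and 12.13 in LSP and 13.15, 12.93 and 13.2 in CD8 (2.35-fold higher in CD8, -1.23 ± 0.19, adjusted p = 0.0328). These genes, both of the actin cytoskeleton, were those called, and the median difference of the 17 was 0.24. Actb lost its call without LSP sample A or any CD8 sample (adjusted p = 0.0703 to 0.118) and a dimmer probe set of it was not called (-1.26, adjusted p = 0.0883). Of 27 tested ribosomal protein genes, 2 were higher in LSP, against 2.92% of all probe sets tested. In CD8 0 were higher (0 at an unadjusted p under 0.05 in limma, and 0 by the methods' t-test). The median was 0.65. At an unadjusted p under 0.05 in limma, 10 were in favour of LSP, against 8.94% of all probe sets tested. Rps10 had 11.94, 12.05 and 12.3 in LSP and 10.44, 10.36 and 10.55 in CD8 (3.14-fold, 1.65 ± 0.15, adjusted p = 0.00618), and Rps24 had 10.73, 11.51 and 11.83 against 9.24, 9.4 and 8.79 (4.65-fold, adjusted p = 0.0341). Rps10 kept its call without each sample in turn, and Rps24 kept it only without LSP sample A (adjusted p = 0.0696 to 0.124 otherwise).

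Of 67 tested genes of oxidative phosphorylation 2 were higher in LSP and 3 in CD8, with a median of 0.10, which is near the 2.92% and 2.58% of all probe sets called in these directions. Uqcr10, of complex III, was within 0.2 of its mean in each population, at 10.99, 10.94 and 10.88 in LSP and 12.13, 11.97 and 12.05 in CD8 (2.16-fold higher in CD8, -1.11 ± 0.11, adjusted p = 0.00872), and kept its call without each sample in turn but not with a variance trend (adjusted p = 0.0662). Ndufb9 and Ndufa8, of complex I, were also higher in CD8 (2.35-fold and 2.24-fold, adjusted p = 0.0413 and 0.0151). Atp5e, of the ATP synthase, had 11.79, 12.04 and 12.56 in LSP and 10.61, 10.48 and 10.75 in CD8 (2.86-fold, adjusted p = 0.0334), and Cox6b2 had 10.89, 10.22 and 10.52 in LSP and 7.19, 7 and 8.19 in CD8 (8.47-fold, adjusted p = 0.0173). Ndufb9 lost its call without any sample other than LSP sample M (adjusted p = 0.0629 to 0.145), Atp5e without LSP sample B or any CD8 sample (0.0831 to 0.127), Cox6b2 without any sample other than CD8 sample D (0.0505 to 0.0834) and Ndufa8 without CD8 sample B (0.0538). In glycolysis, Hk1, the first enzyme of the pathway, was the 1 gene called of 16 tested, also near the background, with 9.59, 10.64 and 10.52 in LSP and 7.91, 7.86 and 7.66 in CD8 (5.43-fold, adjusted p = 0.0201), and it kept the call only without LSP sample A (adjusted p = 0.0572 to 0.0934 otherwise).

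Markers of other marrow cells were looked at for both gates. Of 14 tested granulocyte and monocyte markers (30 on the array) 0 were called in limma (3 in favour of LSP and 0 in favour of CD8 at an unadjusted p under 0.05, and 0 by the methods' t-test), and their summed intensity above the floor ran from 2815 to 10916 in LSP and from 278 to 6250 in CD8. S100a8, a calcium-binding protein of neutrophils, had 9.56, 10.91 and 11.63 in LSP and 7.94, 7 and 7 in CD8 (3.38, adjusted p = 0.0503), and Prtn3 had 8.38, 8.19 and 10.02 in LSP and the floor in CD8 (adjusted p = 0.157). Mpo, Elane and Ctsg, which define early granulocytes, were at the floor on all arrays. Tyrobp reached 11.93 in LSP sample M and 12.01 in CD8 sample D. The part of such cells in the differences was not tested.

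Some B-lineage markers were above the floor in CD8 sample B alone. Of 14 tested (27 on the array), 1 was higher in CD8, against 2.58% of all probe sets tested. In LSP 0 were higher (0 at an unadjusted p under 0.05 in limma, and 0 by the methods' t-test). The summed intensity above the floor ran from 4559 to 15150 in CD8 and from 1100 to 2240 in LSP. Ms4a1, the B-cell antigen CD20, was at 12.78 in CD8 sample B and at the floor in the other 5 samples, and Cd79a (9.56) and Fcer2a (9.07) were above the floor in that sample alone. Cd79b was above it in CD8 samples B and C (10.12 and 10.94) and in LSP sample B (9.11). Pax5, Ebf1 and Cd22, which define B cells, were at the floor on all arrays. Ighm, the heavy chain of immunoglobulin M, was the called gene, with 11.09, 11.3 and 11.3 in CD8 and the floor in LSP (at least 18.7-fold, -4.23 ± 0.12, adjusted p = 0.000533), but 14 of the 16 probe sets given this name were at the floor. The difference of Ighm ran from -4.30 to -4.19 over the samples left out. Hba-a1, a haemoglobin chain, was highest in CD8 sample B as well (10.88, against 8.75 or less elsewhere). Without that sample the calls numbered 76 in favour of LSP and 142 in favour of CD8, and 7 genes of the T-cell receptor list were called, Cd3e (adjusted p = 0.0883) not among them. The part of B-lineage cells in the differences, that of Ighm included, was not tested.

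Erythroid, megakaryocyte, stromal and other lymphocyte markers were mostly low, with Nfe2, Thy1 and Hba-a1 among the exceptions. Of 9, 6, 9 and 2 tested genes, Thy1, which is on the stromal list and is taken up above, was the only one called in limma, and 0 were higher in LSP (0, 1, 1 and 0 at an unadjusted p under 0.05, and 0 by the methods' t-test). Summed intensity above the floor ran from 848 to 1015 in LSP and 0 to 2681 in CD8 for the erythroid list. For the megakaryocyte list it ran from 3700 to 4401 and 711 to 2096, and Nfe2 made up most of the LSP sum. The stromal list had 962 to 1637 and 3117 to 4092, and Thy1 (11.32, 11.4 and 11.66 in CD8) made up most of the CD8 sum. For CD4 and natural killer cells the sums were 422 to 1194 and 274 to 1062. Gata1 stayed within 0.2 of the floor, and Pf4, Col1a1 and Ncr1 were at the floor on all arrays.

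**Figure D5:**
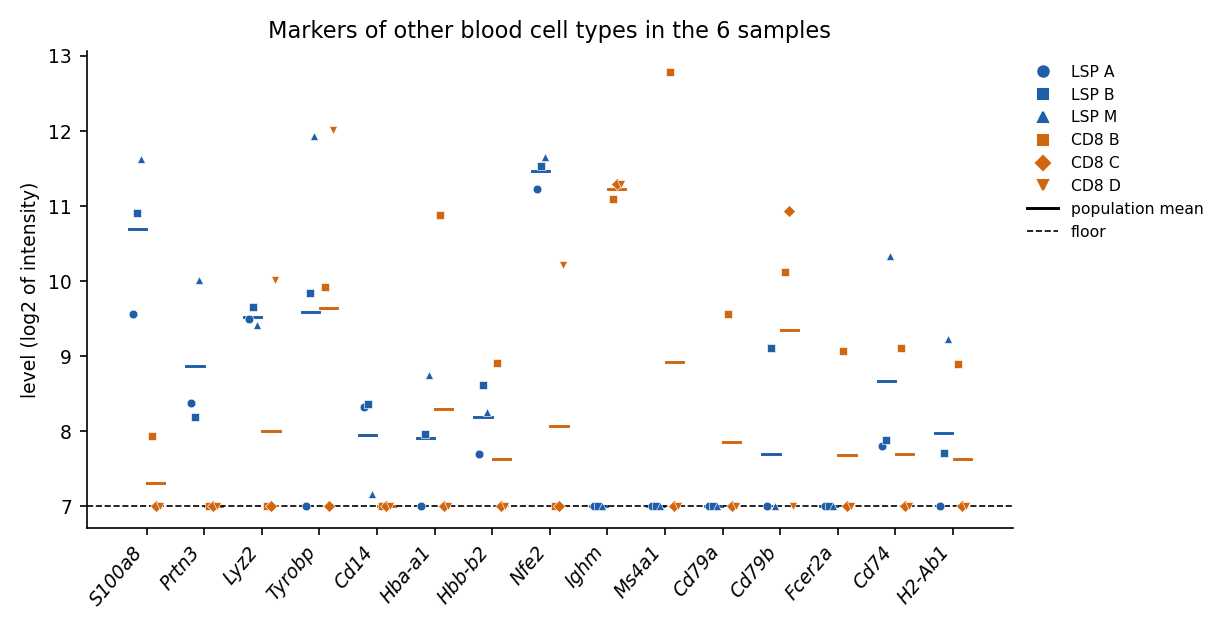
Level (log2 of intensity) of 15 markers of granulocytes, red cells, platelets and B cells in each LSP and each CD8 sample, with bars for population means and the dashed line at the floor of 7. Ms4a1, Cd79a and Fcer2a are above the floor in CD8 sample B alone, Ighm in all 3 CD8 samples, and S100a8 is higher in each LSP sample than in each CD8 sample, without passing the test.

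The genes for which the study designed quantitative PCR primers, which it drew from groups set by its own test of the arrays and whose array values are thus no independent evidence of a direction, included several already described. The primers of 5 of them are given 5′ to 3′, because they mark the stretch of each transcript on which the study's own quantitative PCR reported.
Cd24a forward: caggcaaatatgcaaaggagc
Cd24a reverse: cacatcccaaatgctgggtt
Adgrg1 forward: tgcaaaaggcagcatttcatc
Adgrg1 reverse: cattctccccaacctgaagg
F11r forward: aactaccgcacggacccttt
F11r reverse: gctcgtatcttctccatccacac
Crtam forward: tacaccatggtaaaagtagggacag
Crtam reverse: gcctctaaaaagacacattctggtc
Ltb forward: cccgacatggtggactacaggagag
Ltb reverse: tcggggtcccggacatcacgattca
Ctla2b, a cysteine protease inhibitor, had 9.64, 10.15 and 10.68 in LSP and 7, 7.56 and 7.46 in CD8 (2.82, adjusted p = 0.0133), and lost its call without LSP sample B or any CD8 sample (adjusted p = 0.0548 to 0.0632). Lcn4, a lipocalin, was higher in CD8 (-2.24, at least 4.71-fold, adjusted p = 0.00114, and 0.127 with a variance trend), as was the second probe set of Slfn2 (-3.50, adjusted p = 0.00319). Map2k3 (3.12, adjusted p = 0.0546), Hhex (1.59, adjusted p = 0.481) and Cd55 (-0.32, adjusted p = 0.817) were not called. Nor were Trim27, Glud1, Bag1, Coil and Cnbp, with differences from -0.16 for Bag1 to 0.78 for Coil. The study listed Trim27, Glud1, Bag1, Coil and Cnbp as not statistically different, but at an unadjusted p under 0.05 and with lower and upper SP samples together. At that threshold Trim27 would count as different here (limma, unadjusted p = 0.0339), and its samples did not overlap. Glud1, Bag1, Coil and Cnbp would not.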

How the data were processed

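The arrays were of the Affymetrix MG-U74Av2 type, and the authors deposited 1 table of signal intensities on a linear scale, each array scaled to a like mean. The study's methods describe RMA levels on the log2 scale, which the deposited values are not. Intensities under 128 were set to 128, log2 was taken and the 2 arrays of a sample were averaged. Probe sets exceeding the floor on any of the 12 arrays, 6406 in number, entered a limma model (limma 3.58.1, R 4.3.3) that gives each population its own mean, followed by Benjamini-Hochberg adjustment over them all. Errors after ± are standard errors of the difference (n = 3 samples per population). Arrays have no read depth, and the number of samples limits the precision. USP and single-cell arrays were left out. Of 12422 probe sets other than the 66 controls, 10833 were given 1 gene by the GEO annotation of the array, 396 several and 1193 none, and those with several or none were not named. A gene stands for its probe set with the highest mean level. Named genes were Lmo2, Tie1, Zap70 and Cd3d, the genes of the sort, the 15 largest called and not overlapping probe sets in each direction, up to 6 called and 3 uncalled members of each list with the largest differences, defining markers of other cells and genes with quantitative PCR primers. The members and lists were chosen with earlier results of these data known. The fit was tested on simulated data with known changes and, for each probe set, the spread of the real samples pooled over both populations. The fit called 3%, 16.4% and 51.5% of changes of log2 1, 2 and 4, and 5 of its 52 calls were false. The real samples varied more in LSP than in CD8 (median standard deviation 0.59 and 0.29), which the simulation did not copy. False calls were not counted apart for probe sets with a population at the floor. Differences of these sizes can thus go uncalled. Alternatives were other floors, filters, scalings, variance models, single arrays and leaving out each sample. Summaries and plots used Python 3.11.15, numpy 2.4.6, pandas 2.3.3 and matplotlib 3.10.9.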

Additional observations from a re-analysis of the deposited data

How the results depend on the processing

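Against 187 probe sets higher in LSP and 165 higher in CD8, testing all probe sets without the filter on low values gave 72 and 97, and a variance trend gave 53 and 59, all but 2 of the former and all of the latter among the 352. With the sample as a random block for its 2 arrays 238 and 279 were called, and with the array number as a replicate block besides, 226 and 258. The array number marks a repeat hybridization, and samples of the 2 populations share no donor that the labels name. The second array of each sample alone gave 120 higher in LSP. The methods' t-test gave 89 and 104 after Benjamini-Hochberg adjustment and 491 and 400 at an unadjusted p under 0.05. Without 1 sample, calls higher in LSP ran from 74 to 268, calls higher in CD8 from 120 to 226 and probe sets without overlap from 1674 to 1990, against 1350. Among probe sets with a level over 9 in at least 3 samples, 758 did not overlap. Floors of 6 and 8, quantile normalization, centring, a robust variance and the USP samples in the model kept both counts of calls within 1.5 times. Centring the arrays on their median shifted the called differences by -0.15 in the median. Of 75 named calls, 49 to 72 were kept under each alternative that tested them all, 47 were kept whichever sample was left out, and 0 called differences changed sign. The sign turned for these uncalled genes: Ptprc (-0.08 with quantile normalization, -0.06 with centring, -0.40 without LSP sample M, up to 0.36 without LSP sample B), Gata3 (0.25, 0.09 and 0.03 without LSP sample B, CD8 sample B and CD8 sample C, down to -0.89 without CD8 sample D), Bag1 (0.32 and 0.02 without LSP sample B and CD8 sample B, and as low as -0.70 without LSP sample M), Cnbp (-0.34 and -0.06 without LSP sample M and CD8 sample C, up to 0.41 without LSP sample A), Cd55 (0.33 without LSP sample B, -0.83 without LSP sample M), Coil (-0.22 without LSP sample M, 1.33 without LSP sample B), Rap1b (0.14 without LSP sample M, -0.45 without LSP sample A) and Tbxas1 (-0.11 without LSP sample A). The causes were not tested. A fit of the arrays with positive values alone was not run, since LSP was left with 1 sample. Levels under the floor have no order, which limits every gene at the floor in a population.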

Other observations

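The gene families below were picked with their values in view. Their counts stand against 2.92% of all tested probe sets called higher in LSP and 2.58% higher in CD8. Of 51 tested genes of the mitochondrial ribosome (60 on the array), 4 were higher in CD8 and 0 in LSP in limma with Benjamini-Hochberg adjustment, with a median difference of -0.65. Mrpl35, of the large subunit, had 11.16, 10.64 and 11.1 in CD8 and 7.06, 7 and 7 in LSP (15.4-fold, -3.95 ± 0.18, adjusted p = 0.000865), followed by Mrpl11 (-3.29, adjusted p = 0.00933), Mrps17 (-2.93, adjusted p = 0.0482) and Mrpl36 (-2.10, adjusted p = 0.0158). For Mrpl48 a dimmer probe set was called higher in CD8 (-2.68, adjusted p = 0.0491), while the brighter one was not called (-0.34, adjusted p = 0.828). The ribosomal proteins of the cytoplasm had a median of 0.65. Of 5 genes of the GABARAP and LC3 family, ubiquitin-like proteins of autophagy, Gabarapl1 had 10.77, 10.24 and 10.7 in LSP and the floor in CD8 (at least 11.9-fold, adjusted p = 0.00125) and Map1lc3a was higher in LSP as well (2.43, adjusted p = 0.0186), whereas Gabarap was higher in CD8, with 12.05, 12.11 and 12.37 against 11.09, 10.83 and 10.42 in LSP (-1.40, adjusted p = 0.0346). Of 14 tested tetraspanins, 4 were higher in LSP and 0 in CD8, with Tspan13 (9.15, 9.94 and 9.86 in LSP, 7.57, 7.33 and 7.22 in CD8, adjusted p = 0.0135) joining Cd9, Cd63 and Cd81. Of 11 tested keratins, Krt18 and Krt7 were higher in LSP (Krt7 at 10.62, 8.98 and 10.99 against the floor, adjusted p = 0.0452).

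Probe sets of 1 gene did not always go the same way. Of 291 genes with a call, 76 had several tested probe sets and 11 had 2 or more called in the same direction. Among genes described above, Txk, Foxp1, Myb, Notch2 and Canx each had a dimmer probe set that was not called. Tax1bp1 was called in both directions: one probe set had 7, 7.14 and 7.4 in LSP and 8.81, 9.06 and 8.33 in CD8 (-1.55, adjusted p = 0.0318), and the other had 8.23, 9.35 and 8.88 in LSP and the floor in CD8 (1.82, adjusted p = 0.0396). For Tapbp, the brighter probe set lay lower in LSP without a call (-1.23, adjusted p = 0.0866) while a dimmer one was called higher in LSP (1.68).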
